A study of Mus musculus with 26 samples.

Results

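Enterocyte identity transcription factors are the DNA-binding proteins that specify small intestinal (SI) epithelium and switch on the genes of mature absorptive cells. The 8 genes described here are *Hnf4a*, *Hnf4g*, *Cdx1*, *Cdx2*, *Gata4*, *Gata6*, *Klf4* and *Nr1h4*. They were chosen by name and not by a cut on their values, though earlier results of these data were known. All 8 were found among the 55487 genes of the count table. RNA-seq of the 3′ ends of polyadenylated transcripts was performed on 26 pieces of proximal SI, 1 from each mouse, taken just after the stomach. Knockout mice carried fl/fl alleles of the targeted gene and the Villin-creERT2 transgene, in which the Villin promoter drives a tamoxifen-inducible Cre recombinase in intestinal epithelial cells (IECs). Control mice were fl/fl littermates without Cre, so floxed alleles and tamoxifen were common to all groups. Cre was present in knockout mice only, and the design cannot tell its presence apart from loss of the targeted gene. All mice were 8 to 12 weeks old, had received 5 daily injections of tamoxifen, and were killed 3 days (7 mice per genotype) or 7 days (6 mice per genotype) after the last one. The comparison asks what loss of the targeted gene in IECs does to transcription early and late. Each piece included lamina propria and muscle besides the epithelium, and in such bulk RNA fewer cells of a type and less RNA per cell cannot be told apart.

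HNF4A and HNF4G are paralogous nuclear receptors that occupy many of the same enhancers of brush border and lipid handling genes. CDX2 holds intestinal identity against gastric fate, with CDX1 as its relative, and GATA4 and GATA6 are zinc finger factors, of which GATA4 marks the proximal SI and keeps ileal genes low there. KLF4 acts in terminal differentiation on the villus and in goblet cells. *Nr1h4* encodes FXR, the receptor for bile acids, which is best known from the ileum and liver.

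Values are normalised CPM, counts scaled to a common library size (the total times its TMM factor), which corrects for composition. A 3′ library gives about 1 read per transcript molecule, and levels are compared here only within a gene. The total count per library lay between 3720168 and 6338016, and the members had between 30 and 1949 counts in every library, so each of the 8 passed the filter on low counts in all comparisons. Transcripts of stomach epithelium stood out in 3 libraries, with a score (mean log2 CPM of 10 stomach genes) of 4.76 in knockout replicate 1 and 9.28 in control replicate 5 of day 3, and of 9.07 in control replicate 2 of day 7. The other 23 libraries had scores up to 3.62. Members were low in these pieces: all 8 had their lowest value of the group in the first, 5 in the second and 4 in the third. A score for pancreatic acinar genes ranged from -0.76 to 11.5. As for the region, *Gata4* had at least 147 counts in every library, whereas the ileal hormone gene *Fgf15* had 0 counts in all 26, which allows up to 3 counts per library, counting error only.

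The genes lie on GRCm38 as follows. *Hnf4a* (ENSMUSG00000017950) lies on chromosome 2 from 163506808 to 163572910 on the plus strand. *Hnf4g* (ENSMUSG00000017688) lies on chromosome 3 from 3508030 to 3658052, also on the plus strand. On the minus strand are *Klf4* (ENSMUSG00000003032, chromosome 4, 55527143 to 55532466), *Cdx2* (ENSMUSG00000029646, chromosome 5, 147300805 to 147307270), *Nr1h4* (ENSMUSG00000047638, chromosome 10, 89454234 to 89533585) and *Gata4* (ENSMUSG00000021944, chromosome 14, 63198922 to 63271692). Exons of 7 members overlap no exon of another gene. *Gata6* shares 93 bases with 1010001N08Rik on the opposite strand, and 4 libraries had a fractional *Gata6* count, so a small part of its counts may belong to that gene.

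Promoter sequence was at hand for 4 of the members, as the 250 bases before each RefSeq transcript start (GRCm38.p6). Of the 5 windows, those before *Nr1h4* and before the outer start of *Hnf4a* are shown, because these 2 hold a searched motif. Each is written 5′ to 3′ in the direction of transcription. Capitals mark matches on either strand to the GATA motif (AGATAA) or to the core repeat bound by FXR and other nuclear receptors (AGGTCA), and none of the matches overlap.
Hnf4a, outer start, chr2:163506607-163506856, plus strand: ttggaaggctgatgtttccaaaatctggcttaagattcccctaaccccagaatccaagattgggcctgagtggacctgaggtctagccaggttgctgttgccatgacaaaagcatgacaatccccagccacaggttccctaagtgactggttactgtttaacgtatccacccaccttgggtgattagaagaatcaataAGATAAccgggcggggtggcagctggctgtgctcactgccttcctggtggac
Nr1h4, chr10:89506659-89506908, minus strand: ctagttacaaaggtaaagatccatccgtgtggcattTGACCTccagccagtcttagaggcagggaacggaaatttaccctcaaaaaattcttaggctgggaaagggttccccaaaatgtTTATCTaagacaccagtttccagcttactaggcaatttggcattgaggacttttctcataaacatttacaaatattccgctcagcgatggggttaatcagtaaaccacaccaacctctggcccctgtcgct
The GATA letters start 52 bases before the transcript start in *Hnf4a* and 131 bases before it in *Nr1h4*, whose RefSeq start is inside the annotated span of the gene. They occur in 9.99% of 32851 windows of the same length in the table. The FXR letters lie 214 bases before the start of *Nr1h4*, and occur in 14% of all windows. Letters for CDX (TTTATNG, 9.81% of windows) and HNF4 (CAAAGTCCA, 0.384%) were in none of the 5 member windows, which include *Cdx2*, *Klf4* and the inner start of *Hnf4a*. A match is a description of the sequence, and binding was not measured. Since the libraries read 3′ ends, transcripts from the outer and inner starts of *Hnf4a* cannot be separated.

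At 3 days after tamoxifen, 0 of the 8 factors passed the threshold (adjusted p under 0.05, edgeR's quasi-likelihood test with Benjamini-Hochberg adjustment over 20760 genes), where 1.43% of all genes did. Unadjusted p-values of this test were under 0.05 for 2 of them, *Klf4* and *Nr1h4*, and for 2832 of all 20760 genes. DESeq2 on the same genes also called none of the 8. *Klf4* lay between 54.2 and 159 CPM (median 92.4) in knockout mice and between 43.2 and 96.7 CPM (median 60.7) in control mice, a log2 difference of 0.58 (SE 0.25, adjusted p = 0.3). *Nr1h4* lay between 7.15 and 23.1 CPM (median 19.7) and between 7.66 and 17.4 CPM (median 12.3), a difference of 0.52 (SE 0.23, adjusted p = 0.318). Its low knockout value is that of replicate 1, the library with stomach transcripts, and 4 knockout mice were above all control mice. Without that library *Nr1h4* passed, with a difference of 0.66 (adjusted p = 0.0448). The lowest control value is that of replicate 5, which also had stomach transcripts. *Nr1h4* passed in 0 of 12 alternative settings other than single left-out mice. These include the fit without the stomach libraries of both genotypes. The other 6 factors differed by -0.26 (*Gata4*) to 0.21 (*Hnf4g*) on the log2 scale, with SEs of 0.18 to 0.25, and the groups overlapped for every member.

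At 7 days, 5 of the 8 factors differed between the genotypes. *Hnf4g*, *Gata6*, *Cdx2* and *Gata4* fell in knockout mice and *Nr1h4* rose, whereas *Hnf4a*, *Cdx1* and *Klf4* did not pass. Over all 20259 genes tested, 18.8% were called lower and 19.7% higher, so 4 of 8 lower and 1 of 8 higher are read against a day on which many genes moved. The median log2 change of the 8 was -0.39, against -0.02 over all genes. Groups did not overlap for 4 members. Among all genes, knockout values were all below control values for 10.5% and all above for 11.8%.

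**Figure D1:**
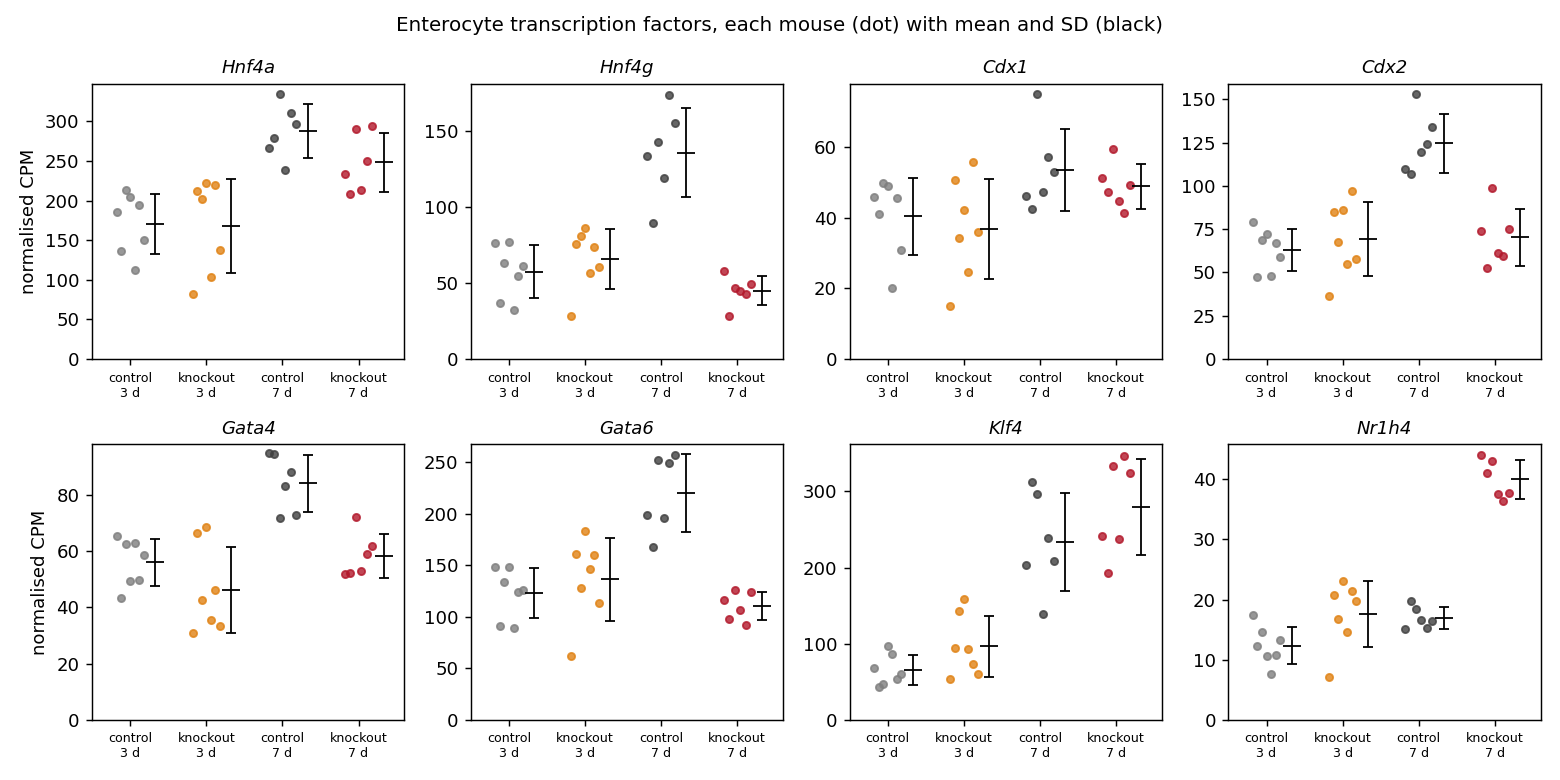
Normalised CPM of the 8 factors in each mouse, with 1 dot per mouse by genotype and day and the group mean ± SD in black beside the dots (7 mice per group at 3 days, 6 at 7 days, axes from 0). At 7 days the knockout mice lie below all control mice for *Hnf4g*, *Cdx2* and *Gata6* and above all of them for *Nr1h4*.

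*Hnf4g* showed the largest change of the members. At 7 days it lay between 28.2 and 57.7 CPM (median 45.7) in knockout mice and between 89.7 and 174 CPM (median 138) in control mice. The highest knockout mouse was below the lowest control mouse. The means were 44.9 ± 9.70 and 136 ± 29.3 CPM (SD, n = 6 each), a log2 fold change of -1.61 (SE 0.16, adjusted p = 1.99e-07, edgeR), or 3.06-fold lower. Its paralogue *Hnf4a* lay between 208 and 295 CPM (median 242) and between 239 and 335 CPM (median 288). Here 3 knockout mice were below all control mice and the groups overlapped, with a log2 difference of -0.23 (SE 0.11, adjusted p = 0.112, edgeR). The call of *Hnf4a* depended on the setting. Its adjusted p lay between 0.0203 and 0.446 over 12 alternatives and between 0.0343 and 0.219 with each mouse left out. It passed in 3 alternatives by edgeR. These were scaling to pan-epithelial genes (-0.34, adjusted p = 0.0203), pancreatic and stomach scores as covariates (-0.28, adjusted p = 0.0428) and library totals only (-0.26, adjusted p = 0.0494). *Hnf4a* also passed without knockout replicate 6 (-0.32) and without control replicate 4 (-0.31).

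The CDX pair was likewise unequal. *Cdx2* lay between 52.8 and 99 CPM (median 67.7) in knockout mice and between 107 and 153 CPM (median 122) in control mice at 7 days, with no overlap. It fell by 0.84 on the log2 scale (SE 0.13, adjusted p = 4.2e-05, edgeR), or 1.80-fold. *Cdx1* lay between 41.3 and 59.5 CPM (median 48.2) and between 42.5 and 74.9 CPM (median 50.1), and the groups overlapped almost fully. Its difference was -0.15 (SE 0.12, adjusted p = 0.381, edgeR), and it passed in 1 alternative, with pancreatic and stomach scores as covariates (-0.28, adjusted p = 0.0424).

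Both GATA factors fell. *Gata6*, which acts along the whole SI, lay between 92.4 and 125 CPM (median 111) in knockout mice and between 167 and 256 CPM (median 224) in control mice, with no overlap. It fell by 1.01 (SE 0.12, adjusted p = 1.45e-06, edgeR), or 2.01-fold. *Gata4* lay between 51.8 and 72.0 CPM (median 55.8) and between 71.8 and 94.8 CPM (median 85.6). In 5 of 6 knockout mice it was below all control mice, and the highest knockout mouse was above the lowest control mouse. It fell by 0.55 (SE 0.11, adjusted p = 0.000427, edgeR).

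*Nr1h4* moved the other way. At 7 days it lay between 36.5 and 44.0 CPM (median 39.4) in knockout mice and between 15.1 and 19.8 CPM (median 16.5) in control mice, and all 6 knockout mice were above all control mice. The means of 39.97 ± 3.17 and 16.9 ± 1.84 CPM (SD, n = 6 each) gave a rise of 1.22 on the log2 scale (SE 0.10, adjusted p = 1.45e-08, edgeR), or 2.34-fold. It had 69 to 237 counts in the libraries of day 7. *Klf4* lay between 193 and 347 CPM (median 283) and between 139 and 313 CPM (median 223), a difference of 0.24 (SE 0.18, adjusted p = 0.313, edgeR), with 3 knockout mice above all control mice. The calls at 7 days of *Hnf4g*, *Cdx2*, *Gata4*, *Gata6* and *Nr1h4* held with each of the 12 mice left out and in every alternative other than a minimum change of 2-fold, which *Cdx2* and *Gata4* did not reach.

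**Figure D2:**
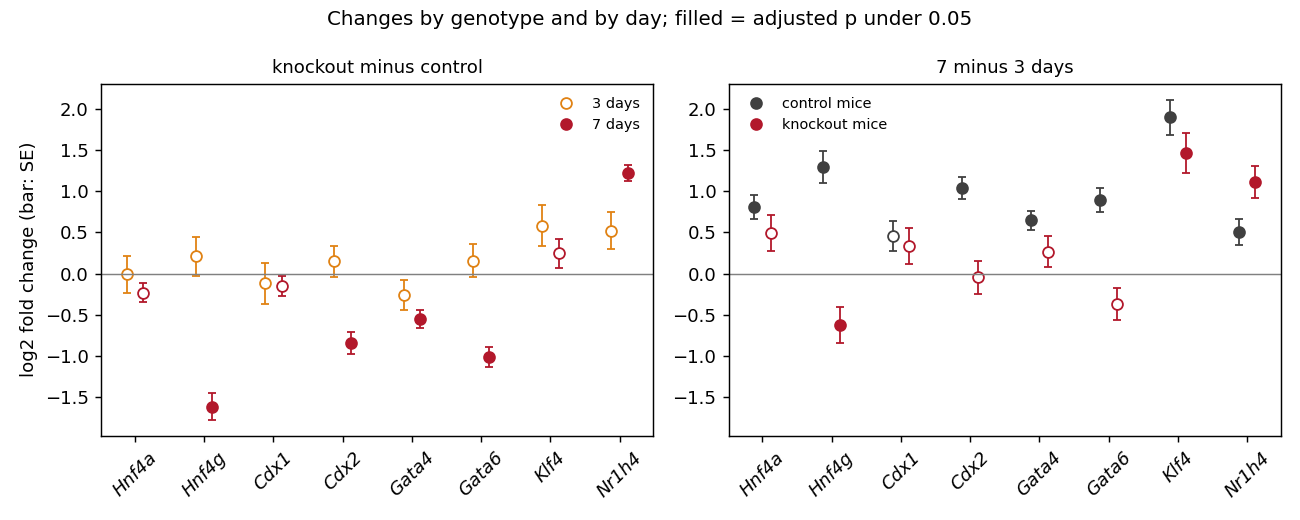
Log2 fold changes with standard errors for the 8 factors, between the genotypes at 3 and 7 days (left) and between 7 and 3 days in control and in knockout mice (right), with filled dots for an adjusted p under 0.05. On the left all dots of 3 days are open, and at 7 days *Hnf4g* lies lowest at -1.61 and *Nr1h4* highest at 1.22.

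Whether the genotypes differed by the same amount at 3 and 7 days was tested with an interaction term, in 1 fit of all 26 libraries. Of the 8 factors 3 had a lower effect at 7 days, where 9.74% of 19604 genes did, and 1 a higher effect, where 8.64% did. The interaction term was -1.81 for *Hnf4g* (SE 0.31, adjusted p = 8.66e-05, edgeR). The terms were -1.15 for *Gata6* (SE 0.25, adjusted p = 0.00123) and -0.97 for *Cdx2* (SE 0.25, adjusted p = 0.00602). *Nr1h4* had a term of 0.72 (SE 0.26, adjusted p = 0.0491), which passed with 6 of the 26 mice left out in turn and failed with the other 20, with adjusted p between 0.0212 and 0.0929. For *Gata4*, which passed at 7 days and not at 3 days, the difference between the days did not pass (-0.26, SE 0.22, adjusted p = 0.469). *Hnf4a*, *Cdx1* and *Klf4* had terms of -0.20, -0.01 and -0.32 with adjusted p from 0.584 to 0.989.

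The control mice themselves differed between the days. In control mice, 7 of the 8 factors were higher at 7 than at 3 days, where 19.7% of 20646 genes were. *Klf4* was higher by 1.90 (SE 0.21, adjusted p = 2.23e-05, edgeR), *Hnf4g* by 1.29 (SE 0.20), *Cdx2* by 1.04 (SE 0.13), *Gata6* by 0.89 (SE 0.15), *Hnf4a* by 0.81 (SE 0.15), *Gata4* by 0.65 (SE 0.12) and *Nr1h4* by 0.50 (SE 0.16, adjusted p = 0.0203). *Cdx1* did not pass (0.46, SE 0.18, adjusted p = 0.0639). These 6 control libraries of day 7 also enter the comparison of the genotypes. Day and any sequencing batch that goes with it cannot be told apart.

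Markers of the cell types in a piece moved with the day as well. The summed level of 7 pan-epithelial genes was 1691 to 2946 CPM in control mice at 3 days and 3894 to 4923 CPM at 7 days, with 6 of 7 genes called higher. The sum of 8 smooth muscle genes went from 2377 to 3855 CPM down to 1500.4 to 1983 CPM, with all 8 called lower, and all 7 fibroblast and all 5 endothelial genes were lower too. Scaled to the pan-epithelial genes, an alternative chosen after seeing the data, 2 of the 8 factors passed between the control mice, *Klf4* and *Hnf4g*, and *Hnf4a*, *Cdx1*, *Gata4* and *Nr1h4* changed direction. On this scale 13612 of 20614 genes (each symbol counted once) passed, and the median of all genes shifted by -0.85. Scaling by library totals alone shifted the median of all genes by -0.36 in this comparison, and *Gata4* (0.29, adjusted p = 0.0532) and *Nr1h4* (0.14, adjusted p = 0.514) did not pass. The part of the epithelial share in these differences was not tested further. Between the genotypes at 7 days the sums overlapped, at 3457 to 4337 CPM in knockout and 3894 to 4923 CPM in control mice. On the pan-epithelial scale the 5 calls held, and *Hnf4a* also passed, lower in knockout mice (-0.34, adjusted p = 0.0203, edgeR).

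In knockout mice, *Klf4* and *Nr1h4* were higher at 7 than at 3 days, and *Hnf4g* was lower. Among all 20329 genes, 16.7% were called higher and 20.2% lower in this comparison. *Klf4* rose by 1.47 (SE 0.24, adjusted p = 0.000198, edgeR) and *Nr1h4* by 1.11 (SE 0.19, adjusted p = 0.000295), each with every mouse of day 7 above all mice of day 3. *Hnf4g* fell by 0.62 (SE 0.21, adjusted p = 0.0312), with overlap between the days. This call was lost with 9 of the 13 mice left out in turn, with values between -0.76 and -0.45. *Cdx2*, *Gata6*, *Gata4*, *Cdx1* and *Hnf4a* differed by -0.05, -0.37, 0.27, 0.34 and 0.49, and none of these 5 passed. *Gata6* passed without knockout replicate 1 of day 3 (-0.50, adjusted p = 0.00512). *Hnf4a* passed without replicate 2 or 4 of day 3, and *Gata4* without replicate 4 of day 3 (0.45, adjusted p = 0.0428). Scaled to the pan-epithelial genes, 6 factors passed between the knockout mice, where 12790 of 20297 genes did (each symbol counted once). On this scale *Klf4* was higher, *Hnf4g*, *Cdx1*, *Cdx2*, *Gata4* and *Gata6* were lower, and *Nr1h4* did not pass (0.36, adjusted p = 0.072).

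Ordered by group means, *Hnf4g* ran from control mice at 7 days (136 CPM) over knockout (66.0) and control mice (57.4) at 3 days to knockout mice at 7 days (44.9). *Gata6* had the same order, at 220, 136, 123 and 110 CPM. In both genes the step from the first to the second group exceeded the larger SD of the neighbours, and the other 2 steps did not. *Cdx2* followed with 125 CPM in control mice at 7 days and 70.3, 69.3 and 63.0 CPM in the remaining groups, which did not differ beyond their SD. *Hnf4a* had 288 CPM in control and 248 CPM in knockout mice at 7 days and 170 and 168 CPM at 3 days. *Nr1h4* had 39.97 CPM in knockout mice at 7 days, 17.6 in knockout mice at 3 days, 16.9 in control mice at 7 days and 12.4 in control mice at 3 days. For *Nr1h4* in knockout mice at 7 days the coefficient of variation was 7.93%.

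Ratios of paralogues within a library do not depend on how libraries are scaled. They were chosen after the values had been seen, as 3 pairs on 2 days, and tested with two-sided exact permutation tests adjusted over the 6 tests. At 7 days the log2 ratio of *Hnf4g* to *Hnf4a* lay between -2.88 and -2.01 in knockout and between -1.64 and -0.83 in control mice. The groups did not overlap and the means differed by -1.38 (p = 0.00216, exact permutation test, the smallest that 924 permutations can give, adjusted p = 0.00649). The ratio of *Cdx2* to *Cdx1* lay between 0.16 and 0.73 in knockout and between 1.03 and 1.34 in control mice, again without overlap, and differed by -0.73 with the same exact permutation p-values. The ratio of *Gata6* to *Gata4* overlapped, at 0.65 to 1.16 and 0.82 to 1.81, and differed by -0.45 (exact permutation p = 0.0368, adjusted p = 0.0552).

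At 3 days the same ratios differed by 0.27, 0.27 and 0.43 (exact permutation p = 0.0711, 0.0962 and 0.0361, adjusted p = 0.0853, 0.0962 and 0.0552). All 3 pairs thus had positive differences at 3 days and negative ones at 7 days, and none passed at 3 days. Without the libraries with stomach transcripts, chosen after seeing the data, *Gata6* to *Gata4* passed at both days (0.42, adjusted p = 0.0346, and -0.56, adjusted p = 0.00866, exact permutation tests), and *Cdx2* to *Cdx1* passed at 3 days (0.32, adjusted p = 0.0442). With each mouse left out, the differences at 7 days lay between -1.48 and -1.30 for the HNF4 pair and between -0.77 and -0.66 for the CDX pair, and all passed.

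**Figure D3:**
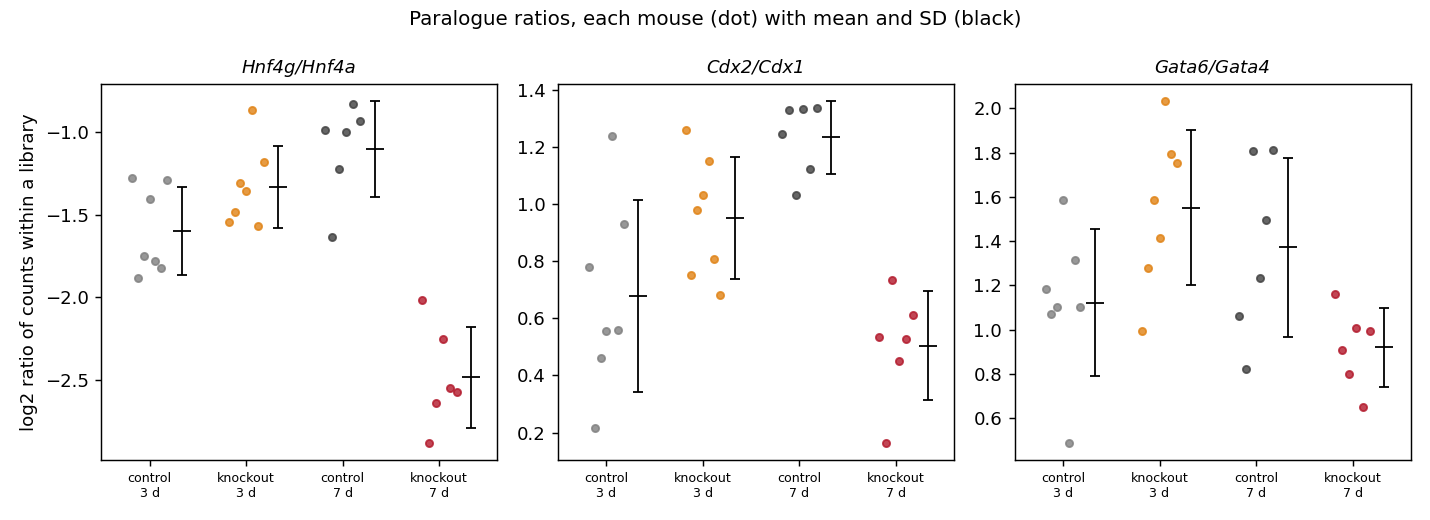
Log2 ratio of the counts of 2 paralogues within each library (dots, 1 per mouse) by genotype and day, with group mean ± SD in black. At 7 days all knockout mice lie below all control mice for *Hnf4g*/*Hnf4a* and *Cdx2*/*Cdx1*, and the groups overlap for *Gata6*/*Gata4*.

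Beside the 8 members, a list of 25 other transcription factors of the intestinal epithelium was measured. At 7 days, 15 of the 25 were lower and 1 higher in knockout mice, with a median log2 change of -0.83. The largest fall was that of *Vdr*, the vitamin D receptor, from 409 to 671 CPM (median 551) in control mice down to 22.2 to 89.3 CPM (median 71.7), without overlap (-3.11, SE 0.25, adjusted p = 1.15e-08, edgeR). *Gata5*, the third GATA factor of the gut, went from 17.5 to 25.0 CPM (median 22.4) down to 2.08 to 4.57 CPM (median 2.72), also without overlap (-2.83, SE 0.20, adjusted p = 2.06e-09). At 3 days, 1 of the 25 passed, *Elf3*, an ETS factor of epithelial differentiation, which was lower by 0.63 (SE 0.15, adjusted p = 0.0459) and lower by 1.09 at 7 days. With no filter on low counts 0 of the 25 passed at 3 days, and with DESeq2 or with library totals 2 did. The interaction passed downwards for 10 of the 25. Between the control mice of the days, 15 of the 25 were higher at 7 days and 2 lower, with a median of 0.50.

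**Figure D4:**
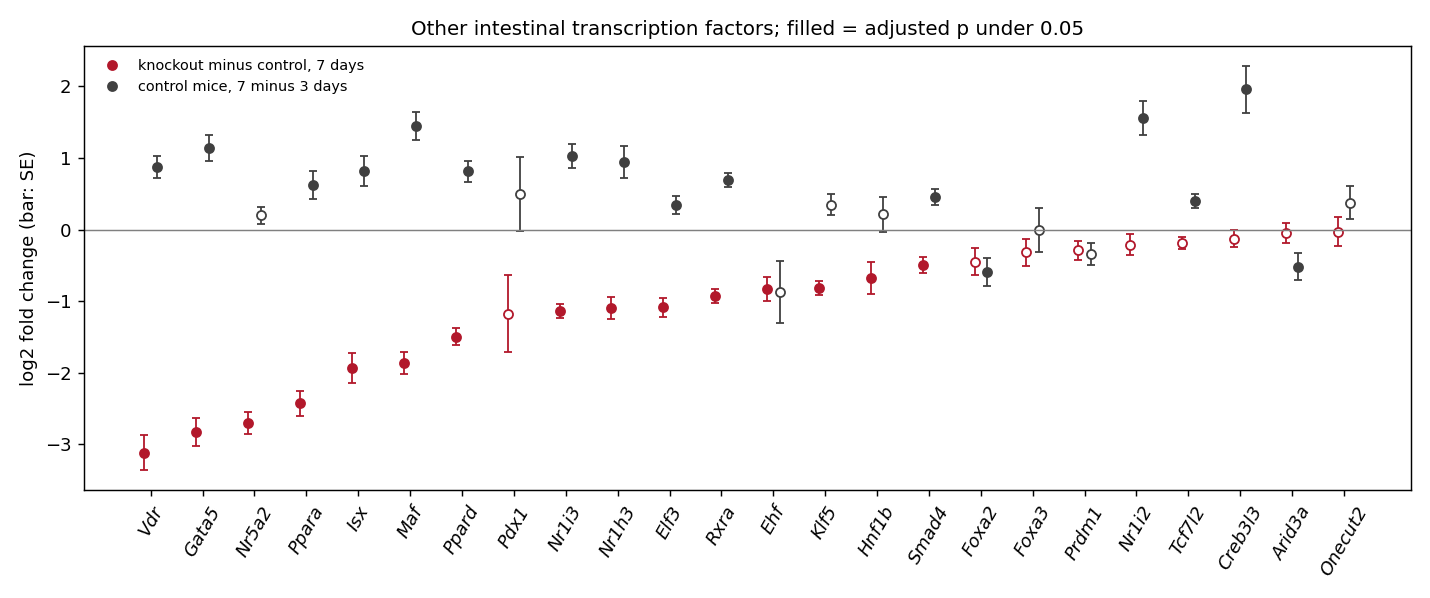
Log2 fold changes with standard errors for the other intestinal transcription factors (1 of the 25 is not drawn), sorted by the change between the genotypes at 7 days (red), with the change between control mice of 7 and 3 days in grey, and filled dots for an adjusted p under 0.05. *Vdr* lies lowest of the red dots at -3.11, and no filled red dot drawn lies above 0.

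Of 15 factors of the secretory and crypt lineages, 12 were tested at 7 days, and 7 of them were lower and 0 higher. *Neurog3*, *Pax4* and *Pou2f3* were left out by the filter on low counts, being 0 in most knockout libraries. In the libraries of day 7 *Neurog3* had 11 to 27.5 counts in control and at most 0.5 in knockout mice. *Pax4* had 1 to 6 counts in control and at most 1 in knockout mice, and *Pou2f3* 1 to 4 and 0. *Insm1*, a factor of enteroendocrine cells, had a log2 change of -1.40 (SE 0.31, adjusted p = 0.00135, edgeR), on 3 to 18 counts in the libraries of day 7. At 3 days 0 of the 15 passed by edgeR, and DESeq2 called 2, where it called 768 of 20728 genes (each symbol counted once). The unadjusted p of edgeR was under 0.05 for 2 of the 15, and for 2832 of all 20760 genes.

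Genes of the brush border and of absorption, many of which are known to be bound by the HNF4, CDX and GATA factors, were measured as a further list. At 7 days, 30 of 32 fell and 0 rose, with a median of -1.81 against -0.39 for the 8 factors. *Lct*, which encodes lactase, went from 768 to 1887 CPM (median 1146) in control mice to 11.1 to 63.5 CPM (median 18.5) in knockout mice (-5.52, SE 0.41, adjusted p = 4.84e-09, edgeR). *Cubn*, the receptor for vitamin B12 with intrinsic factor, had 6.97 to 167 CPM in control mice and at most 8 counts in knockout mice (-6.97, SE 0.82, adjusted p = 1.61e-06). At 3 days 1 of the 32 passed, the guanylate cyclase receptor gene *Gucy2c* (-0.81, SE 0.19, adjusted p = 0.043), and 2 passed with all 26 libraries in 1 fit. All 32 were higher in control mice at 7 than at 3 days, with a median of 2.08.

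Genes of bile acid handling that FXR controls were measured as a list of 6, of which 4 were tested at 7 days. *Slc51a* and *Slc51b*, the subunits of the basolateral exporter OST that FXR is known to induce, fell by 1.01 (SE 0.13, adjusted p = 5.22e-06, edgeR) and 2.30 (SE 0.21, adjusted p = 7.41e-08), while *Nr1h4* itself rose. *Slc51b* lay between 11 and 31.3 CPM in knockout and between 69.2 and 156 CPM in control mice, without overlap. *Slc10a2*, the apical bile acid transporter of the ileum, rose from 0 to 19 counts per control library to 22 to 65 counts per knockout library, by 2.35 on the log2 scale (SE 0.44, adjusted p = 0.000299). *Nr0b2*, the repressor SHP, did not pass (-0.49, SE 0.38, adjusted p = 0.341). *Fabp6*, an ileal bile acid binding protein, had at most 6 counts per library of day 7, so no change could be detected with these counts.

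Markers of other cell types give the setting at 7 days. Between the genotypes, all 5 genes of proliferation and 4 of 5 stem cell genes were lower, at sums of 144 to 229 against 501 to 729 CPM and of 216 to 285 against 611 to 707 CPM. Pan-epithelial genes were split, with 2 higher and 3 lower of 7. Of 6 goblet cell genes 1 was higher and 2 lower, of 5 Paneth cell genes 1 was lower, of 5 enteroendocrine genes 1 was lower, and of 3 tuft cell genes 1 was higher and 1 lower. All 5 endothelial and 3 of 7 fibroblast genes were higher, 1 of 8 smooth muscle genes was lower, and of 8 lymphocyte and plasma cell genes 2 were higher and 5 lower. Of the stomach genes 3 of 4 tested were lower, at a median sum of 8.05 against 25.9 CPM, and DESeq2 called none of them. Some of these counts depended on the setting. Of the Paneth cell genes 4 were called with stomach and pancreatic scores as covariates, 2 with library totals or no filter, and 0 with DESeq2 or all 26 libraries in 1 fit. That joint fit also called 3 of the pan-epithelial genes and 0 of the goblet cell and smooth muscle genes. None of the pancreatic (6 tested), squamous forestomach (1) and hepatocyte (1) genes passed. The part of these cell types in the values of the 8 factors was not tested. The 5 factors kept their calls at 7 days with stomach and pancreatic scores as covariates and without the libraries with stomach transcripts. With the scores as covariates, *Hnf4a* (-0.28, adjusted p = 0.0428, edgeR) and *Cdx1* (-0.28, adjusted p = 0.0424) also passed, both lower in knockout mice.

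For each member, the 3 genes with the most similar profile were taken by Pearson correlation of log2 CPM over the 26 libraries, among 12694 genes averaging 20 counts or more. These libraries share genotype, day and the makeup of the piece, and the coefficients are a description. They were *Atp5g3*, *Hectd3* and *Tmem14c* for *Hnf4a* (r from 0.948 to 0.956), *2010106E10Rik*, *Lpgat1* and *Ifi27l2b* for *Hnf4g* (0.963 to 0.968), *Tor1a*, *Cenpv* and *Slc35g1* for *Cdx1* (0.896 to 0.916), and *Hepacam2*, *Nop9* and *Cideb* for *Cdx2* (0.937 to 0.954). For *Gata4* they were *Fam234a*, *4930528J11Rik* and *Abhd3* (0.908 to 0.949), and for *Gata6* they were *Mtch2*, *Rbp2* and the member *Hnf4g* (0.950 to 0.955). For *Klf4* they were *Plekhb2*, *Raph1* and *Prr13* (0.961 to 0.965), and for *Nr1h4* they were *Mex3c*, *Coa5* and *Tm4sf20* (0.953 to 0.956). By Spearman correlation, none of the 3 genes was among the first 3 for *Hnf4a*, *Gata6* and *Nr1h4*.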

How the data were processed

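QuantSeq 3′ FWD libraries of proximal SI tissue from 26 mice were analysed. Per the study's methods, the authors trimmed reads with cutadapt 2.10, aligned them to GRCm38 with ERCC sequences using subread-align, and counted primary alignments on exons with featureCounts 2.0.1, splitting a read among overlapping genes. The deposited table thus holds estimated counts (95.0% of values whole), which were rounded to whole numbers here. The deposited CPM table is these counts divided by each library's total, and no value was taken from it. The ERCC entries summed to 0. No strand setting is given in the sources used here.

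Library totals, 3720168 to 6338016 counts, limit the precision of low genes. Groups came from the labels, and each library is 1 mouse. Genes with a count of 0 in the majority of libraries of either group were left out. Each contrast was fitted on its own groups, and the interaction on all 26 libraries, with TMM scaling and edgeR's quasi-likelihood test (edgeR 4.0.16, R 4.3.3), Benjamini-Hochberg adjustment over all genes tested and a threshold of 0.05. The SE is the absolute log2 fold change over the square root of the F statistic. The code was tested on simulated data. Alternatives used DESeq2 1.42.0, other scalings and filters, covariates, a replicate block and left-out mice. The members and gene lists were chosen with earlier results of these data known. Named beside the 8 members were the 2 called genes of a functional list with the largest rise and fall at 7 days, list genes called at 3 days, and the 3 most correlated genes per member. *Nr0b2*, *Fgf15*, *Fabp6*, *Neurog3*, *Pax4* and *Pou2f3* were named after their values were seen. Some items, the targeted gene among them, are not reported here.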

Additional observations from a re-analysis of the deposited data

Results flagged for a closer look

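For 4 of the 8 factors the genotype effect was unequal at 3 and 7 days by the interaction term of edgeR's quasi-likelihood test. The effect at 7 days minus that at 3 days was -1.81 for *Hnf4g*, -1.15 for *Gata6*, -0.97 for *Cdx2* and 0.72 for *Nr1h4*. For *Hnf4g*, *Gata6* and *Cdx2* the difference passed with each of the 26 mice left out. That of *Nr1h4* passed with 6 of the 26 left out. In 44 groups of values (members and paralogue ratios), 0 had a mouse standing apart from its group by Dixon's test.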

How the results depend on the processing

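Depth limits low genes: a count of up to 3 cannot be told from none. Alternatives changed one setting at a time. Scaling to the pan-epithelial list and leaving out libraries with stomach transcripts were chosen after seeing the data. Over the member values, 426 of the alternatives other than left-out mice kept direction and side of the threshold, and 14 changed direction. With direction kept, 11 newly passed and 21 no longer passed. A value that changed direction is counted only as such, also where it crossed the threshold. With a mouse left out these numbers were 564, 22, 7 and 31. The causes were not tested. With a minimum change of 2-fold, 3 members passed at 7 days, 2 in the interaction and 3 between control mice. The share of all genes past this cut was not computed, so these counts cannot be set against it. Scaled to the pan-epithelial list, which shifted the median of all genes by -0.85 between the days, 2 members passed between control mice and 6 between knockout mice. Among all genes, 13612 of 20614 passed on this scale between control mice and 12790 of 20297 between knockout mice. Between control mice this scaling gave -0.034 for *Hnf4a*, -0.404 for *Cdx1*, -0.192 for *Gata4* and -0.351 for *Nr1h4*, and between knockout mice -0.24 for *Hnf4a*, -0.405 for *Cdx1* and -0.496 for *Gata4*, all opposite in sign to the reported values. At 3 days, *Hnf4a* was 0.00525 with all 26 libraries in 1 fit and 0.0293 without the libraries with stomach transcripts, and with scores as covariates *Hnf4g* was -0.0478, *Cdx2* -0.000441 and *Gata6* -0.0414. The interaction of *Cdx1* was 0.0777 with library totals, and *Cdx2* between knockout mice was 0.0186 with all 26 libraries in 1 fit. With a mouse left out, members called at 3 days ranged from 0 to 1 (*Nr1h4*, without knockout replicate 1), and *Hnf4a* at 3 days from -0.0911 to 0.113, *Cdx1* at 3 days from -0.239 to 0.0183, its interaction from -0.144 to 0.118 and *Cdx2* between knockout mice from -0.161 to 0.0877. *Nr1h4* between control mice did not pass without control replicate 4 (adjusted p = 0.0738) or 5 (adjusted p = 0.0567) of day 3, or without the libraries with stomach transcripts (0.345, adjusted p = 0.07, edgeR), where *Cdx1* passed (0.376, adjusted p = 0.0462). The *Hnf4g* to *Hnf4a* ratio at 3 days passed without control replicate 1 (0.323) or 7 (0.321), *Cdx2* to *Cdx1* at 3 days without control replicate 5 (0.367), *Gata6* to *Gata4* at 3 days without knockout replicate 1 (0.523) or control replicate 4 (0.507), and at 7 days without control replicate 2 (-0.563). Deviations of same-numbered samples from their group means had correlations of -0.39 to 0.49, a spread that cannot decide whether the numbers pair the samples. The labels state no pairing. With the replicate block, 0, 5, 3, 7 and 2 members passed at 3 days, at 7 days, in the interaction, between control and between knockout mice. The losses were *Nr1h4* (0.734, adjusted p = 0.0683, edgeR) and *Hnf4g* (-0.605, adjusted p = 0.119). Among all genes (each symbol counted once), 99 of 20728 passed in this fit at 3 days and 7544 of 20226 at 7 days. In the interaction 3171 of 19572 did, between control mice 5890 of 20614 and between knockout mice 5068 of 20297.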
